A study of Mus musculus with 2 samples.

Results

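The 10 genes described here encode enzymes, and 1 enzyme partner protein, that make small inflammatory molecules: prostaglandins (Ptgs1, Ptgs2, Ptges), leukotrienes (Alox5, Alox5ap, Lta4h, Ltc4s), itaconate (Acod1), nitric oxide (Nos2) and histamine (Hdc). They were chosen by name from the 31053 genes of the count tables, and each was detected. Their unique molecular identifiers (UMIs, 1 per captured transcript) were summed per cell class in single cells of mouse gingiva and alveolar bone surface. The control library came from untreated wild-type C57BL/6 mice aged 8 weeks. The LIP library came from mice of the same strain, genotype and age with ligature-induced periodontitis, in which a silk thread tied around a molar gathers bacteria, taken 7 days after placement. Each library pooled cells of 5 mice, so there was 1 library per condition. No test of the condition was possible, and the intervals given cover counting error only and not the spread between mice.

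Prostaglandins and leukotrienes are both made from arachidonic acid that phospholipases release from membranes. The cyclooxygenases COX-1 (Ptgs1) and COX-2 (Ptgs2) form prostaglandin H2, which the synthase encoded by Ptges turns into prostaglandin E2, a mediator long studied in inflammatory bone loss. On the other branch 5-lipoxygenase (Alox5) works with its partner FLAP (Alox5ap) to form leukotriene A4, from which Lta4h makes the neutrophil attractant leukotriene B4 and Ltc4s makes the cysteinyl leukotrienes. Acod1 diverts aconitate of the citrate cycle into itaconate in activated myeloid cells, Nos2 is the inducible nitric oxide synthase, and Hdc forms histamine from histidine, best known in mast cells and basophils.

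The upstream sequences of 3 members are shown because COX-1 and COX-2 lay on opposite sides of the comparison in macrophage-like cells, and because Acod1 was the member with the most UMIs. The sequences come from RefSeq (GRCm38.p6), which held the region before the start site for 8 of the 10 members. Capitals mark matches, on either strand, to 6 motifs: the TATA box TATAAA, the AP-1 motif TGANTCA, the E box CACGTG, the cyclic AMP response core TGACGT, the C/EBP motif TTNCNNAA and the NF-kappaB consensus. The Ptgs1 sequence, directly before its start, is chr2:36230176-36230425, that of Ptgs2 is chr1:150099781-150100030 and that of Acod1 is chr14:103046762-103047006, all on the plus strand, the last with its final 30 bases inside the annotated gene.
Ptgs1: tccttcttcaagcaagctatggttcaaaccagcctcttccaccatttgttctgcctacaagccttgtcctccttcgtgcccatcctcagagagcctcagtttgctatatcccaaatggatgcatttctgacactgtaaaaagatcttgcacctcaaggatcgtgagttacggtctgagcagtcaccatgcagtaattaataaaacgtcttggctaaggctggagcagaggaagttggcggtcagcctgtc
Ptgs2: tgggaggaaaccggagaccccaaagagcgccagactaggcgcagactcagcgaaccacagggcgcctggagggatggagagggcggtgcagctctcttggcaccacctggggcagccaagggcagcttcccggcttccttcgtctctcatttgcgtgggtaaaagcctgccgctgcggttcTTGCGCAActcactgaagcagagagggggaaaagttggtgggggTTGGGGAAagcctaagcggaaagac
Acod1: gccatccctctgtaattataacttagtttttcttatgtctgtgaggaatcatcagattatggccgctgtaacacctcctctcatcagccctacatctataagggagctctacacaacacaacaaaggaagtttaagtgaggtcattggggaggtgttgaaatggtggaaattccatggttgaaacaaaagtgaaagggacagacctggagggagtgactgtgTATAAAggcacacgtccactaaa

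The Ptgs2 sequence held 2 C/EBP matches, beginning 69 and 25 bases before its RefSeq start. The Acod1 sequence held a TATA box beginning 28 bases before its RefSeq start. The Acod1 sequence shown holds the first 245 of the 250 bases searched, so it ends short of that start. Its TATA box match lay inside the annotated gene. The Ptgs1 sequence held none of the 6 motifs. Among 32536 mouse upstream regions of 250 bases, 36.8% held the C/EBP motif and 12.3% the TATA box, so the first is a common match. The AP-1 motif was found in 6.73%, the E box in 6.04%, the cyclic AMP core in 6.504% and the NF-kappaB consensus in 7.28% of these regions, and in none of the 8 members. Ptges held 1 C/EBP match, beginning 198 bases before its RefSeq start. That region (chr2:30903298-30903547) lay inside the annotated span of Ptges. The Hdc region also lay inside its annotated gene, and the Ltc4s region did in part. All 8 searches depend on the RefSeq start used and cover only the 250 bases before it. A motif outside those bases, for Ptgs2 or any other member, was not sought. A match is a run of letters and not a bound site.

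In the GENCODE annotation of GRCm38 all 10 members are protein-coding genes in single loci. On the plus strand lie Ptgs1 (chr2:36230426-36252272), Ptgs2 (chr1:150100031-150108227), Alox5ap (chr5:149264767-149288153), Lta4h (chr10:93453411-93484875), Acod1 (chr14:103046977-103056573) and Nos2 (chr11:78920787-78960254). On the minus strand lie Ptges (chr2:30889471-30929863), Alox5 (chr6:116410077-116461178), Ltc4s (chr11:50236461-50238616) and Hdc (chr2:126593667-126619299).

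After filtering, 936 LIP cells with a median of 5595 UMIs and 883 control cells with a median of 10845 UMIs were kept. Clustering without the members and their pathway genes gave 12 classes named by markers and a set of unnamed cells, and 10 classes had at least 10 cells in both libraries. Neutrophil-like cells were 320 of the LIP cells (34.2%) and 52 of the control cells (5.89%), and macrophage-like cells were 80 (8.55%) and 42 (4.76%). The libraries shared 2 barcodes, 1 of them among kept cells. A gene was compared within a class where it had at least 20 UMIs over both libraries, and a difference of at least 2-fold was counted.

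Over all kept cells, 4 members stood far apart between the libraries. Acod1 had 6059 LIP and 295 control UMIs, which is 574 and 22.0 per 1000000 UMIs of the library (CPM). Ptgs2 had 2364 and 239 UMIs (224 and 17.8 CPM), Hdc 3422 and 496 (324 and 37.0 CPM), and Nos2 211 and 10 (19.98 and 0.746 CPM). On the log2 scale these are differences of 4.71, 3.65, 3.13 and 4.74. Alox5ap (315 and 109 CPM) and Ptges (31.6 and 14.3 CPM) were 1.53 and 1.14 log2 units higher in the LIP library, and Alox5 (17.4 and 11.4 CPM) 0.61 units. Lta4h (64.6 and 54.9 CPM) and Ptgs1 (24.4 and 25.9 CPM) lay closest to equality, and Ltc4s was lower in the LIP library at 6.91 against 9.47 CPM. These totals mix the number of cells of each class with the level per cell, whereas the comparisons within classes use the level per UMI of the class.

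**Figure D1:**
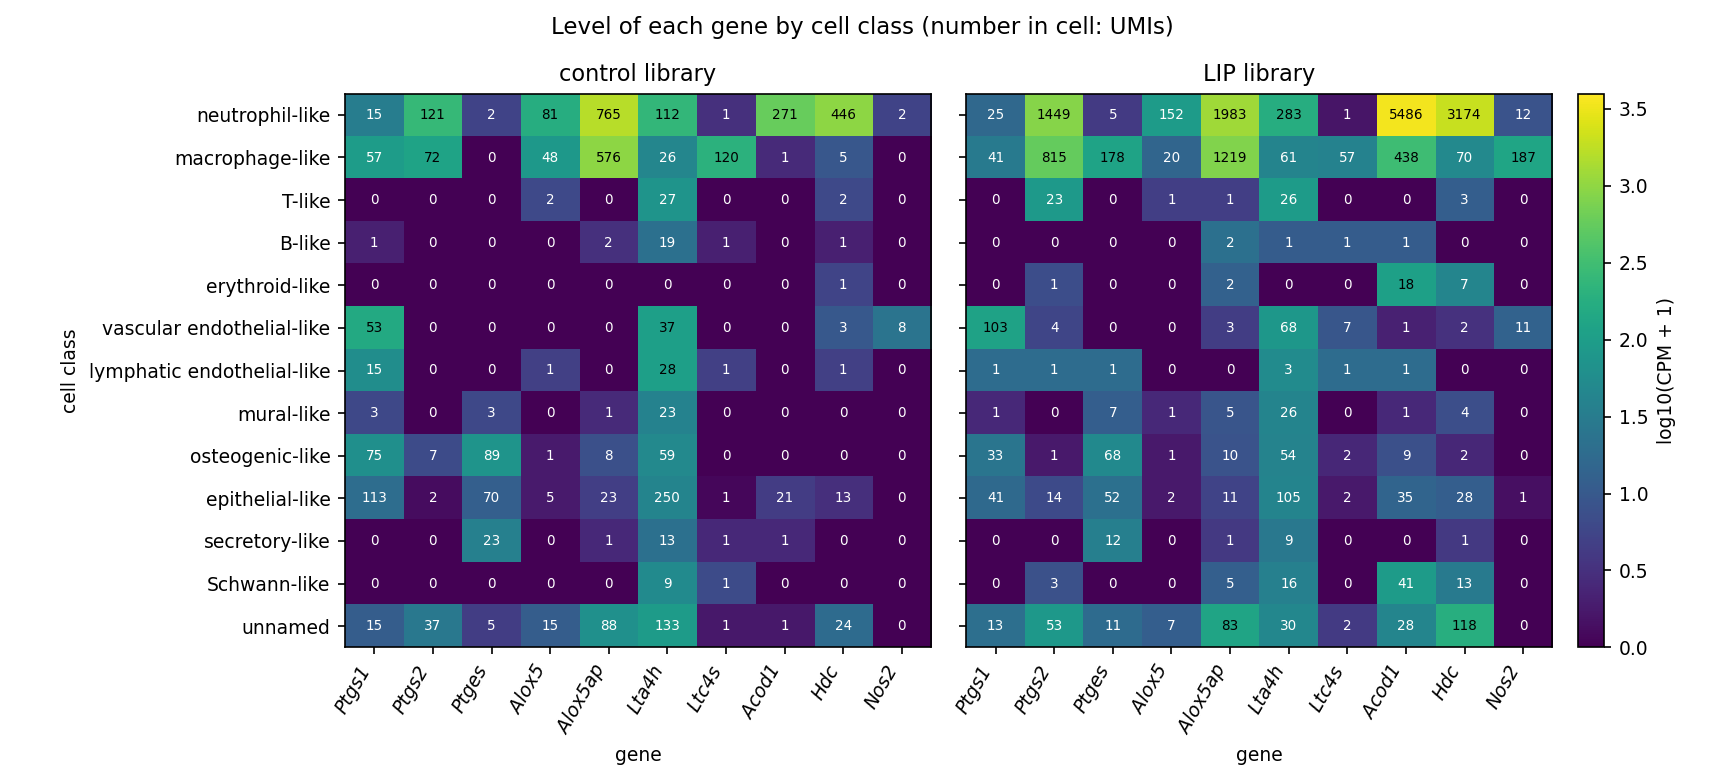
Level of the 10 genes (columns) in each cell class (rows) of the control and LIP libraries; color is log10(CPM + 1) and the printed number is the UMI count. Acod1, Hdc and Alox5ap are brightest in neutrophil-like cells of both libraries, Lta4h is present in nearly every row, and the macrophage-like row holds 187 Nos2 and 178 Ptges UMIs in the LIP library against 0 in control.

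Neutrophil-like and macrophage-like cells together held most of the UMIs of every member but Ptgs1 in the LIP library. They held 97.8% of the Acod1, 96.3% of the Alox5ap, 95.8% of the Ptgs2, 94.8% of the Hdc, 94.3% of the Nos2, 93.5% of the Alox5 and 79.5% of the Ltc4s UMIs of the LIP library. In the control library the shares were 92.2%, 91.6%, 80.8% and 90.9% for the first 4, 84.3% for Alox5 and 95.3% for Ltc4s, while Nos2 had 2 of its 10 UMIs there. For Ptges these shares were 1.04% in the control and 54.8% in the LIP library, and for Lta4h 18.8% and 50.4%. Ptgs1 lay mostly outside these cells in both libraries, at 20.8% and 25.6%.

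Ptgs1, the constitutively made cyclooxygenase, was led by vascular endothelial-like cells in both libraries. Its level there was 119 CPM in the LIP library (95% interval 96.8 to 144) and 154 CPM in the control library (115 to 201), a log2 difference of -0.37 with an interval of -0.86 to 0.13. Nearly all of it lay in the sub-cluster led by Fabp4 and Selp, which held 99 of the 103 LIP and 52 of the 53 control UMIs. Macrophage-like and osteogenic-like cells followed, at 28.1 and 24.4 CPM in the LIP library and 96.2 and 60.7 CPM in the control library. These could not be separated in LIP cells, whereas among control cells the macrophage-like ones were higher beyond the counting interval. Epithelial-like cells stood at 15.8 and 18.3 CPM, and no Ptgs1 UMI was found in T-like, Schwann-like or secretory-like cells.

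Ptgs2, the inducible cyclooxygenase, lay largely in myeloid cells. Neutrophil-like cells had 896 CPM in the LIP library (1449 UMIs in 184 of 320 cells) and 260 CPM in the control library (121 UMIs in 22 of 52 cells). Macrophage-like cells had 558 CPM (815 UMIs in 36 of 80 cells) and 122 CPM (72 UMIs in 7 of 42 cells). Per UMI of the class, neutrophil-like cells were higher than macrophage-like cells in both libraries, by 0.682 and 1.095 log2 units, beyond the counting intervals. Macrophage-like cells were deeper, with medians of 16189.5 LIP and 13720 control UMIs against 3877.5 and 6529. Counted per cell with a Ptgs2 UMI the order was the opposite. The median was 8 Ptgs2 UMIs in macrophage-like and 4 in neutrophil-like LIP cells, and 10 and 2.5 in control ones. In osteogenic-like cells, whose median depth of 22517 LIP and 11740.5 control UMIs was above that of neutrophil-like cells (3877.5 and 6529), 1 LIP and 4 control cells had a Ptgs2 UMI. An unnamed sub-cluster led by Cytl1, Myoc and Chad (7 LIP and 11 control cells) also held Ptgs2. Its level there was 116.5 CPM in LIP and 323 CPM in control (13 and 36 UMIs), and all 36 control UMIs lay in 1 cell.

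Ptges, which encodes the inducible prostaglandin E synthase, was a gene of non-immune cells in the control library. Osteogenic-like cells led there with 72.1 CPM (89 UMIs), ahead of secretory-like cells with 36.4 CPM (23 UMIs) and epithelial-like cells with 11.3 CPM (70 UMIs), each step beyond the counting interval. None of the 42 control macrophage-like cells had a Ptges UMI. In the LIP library macrophage-like cells led with 122 CPM (178 UMIs in 18 of 80 cells), above osteogenic-like cells with 50.2 CPM (68 UMIs). The annotated span of Ptges overlaps another gene, Gm13400, on the same strand, so reads may be split between them and its values are uncertain.

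The leukotriene genes had different distributions. Alox5ap was high in both myeloid classes, at 1226 and 1641 CPM in LIP and control neutrophil-like cells and at 835 and 972 CPM in macrophage-like cells, and no other named class exceeded 20.2 CPM in the LIP library. Alox5 itself was lower, with 94.0 and 174 CPM in neutrophil-like cells and 13.7 and 81.0 CPM in macrophage-like cells. Lta4h was found in every class compared. Outside the neutrophil-like class (175 and 240 CPM) its level ran from 10.1 to 94.7 CPM in the LIP library and from 20.6 to 107 CPM in the control library, and most neighbours in that order could not be separated. Ltc4s lay mostly in the macrophage-like class, with 57 of the 73 LIP UMIs and 120 of the 127 control UMIs. It was found in 11 of the 80 LIP and 9 of the 42 control cells of that class. At a stricter mitochondrial limit, given below, 47 of the 57 and 103 of the 120 UMIs lay in a sub-cluster without a class name.

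Acod1 and Hdc were neutrophil-like genes. Acod1 reached 3391 CPM in LIP neutrophil-like cells (5486 UMIs in 282 of 320 cells) and 581 CPM in control ones (271 UMIs in 36 of 52 cells), and Hdc reached 1962 CPM (305 of 320 cells) and 957 CPM (50 of 52 cells). In vascular endothelial-like cells of the LIP library, which were sequenced more deeply (median 8504 against 3877.5 UMIs), 1 of 79 cells had an Acod1 UMI and 2 had an Hdc UMI. Nos2 was rare, with 221 UMIs in all, as was Ltc4s with 200. Of its 211 LIP UMIs 187 lay in 10 macrophage-like cells, while vascular endothelial-like cells held 11 and neutrophil-like cells 12. The latter classes stood at 12.7 and 7.42 CPM, within their counting intervals, and held 8 and 2 of the 10 control UMIs.

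Because Hdc is the gene by which mast cells and basophils are often recognized, cells with at least 3 of 11 mast cell and basophil markers were counted. There were 3 such LIP cells, holding 31 of the 3422 Hdc UMIs (0.906%), and 2 such control cells, holding 2 of 496 (0.403%). All 5 fell in an unnamed sub-cluster and none formed a cluster of their own. Neutrophil-like cells held 92.8% of the Hdc UMIs of the LIP library and 89.9% of those of the control library.

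Within neutrophil-like cells 7 members could be compared. In the LIP library 3 of them were at least 2-fold higher, where 12.2% of the 5125 genes compared in this class were, and 1 was at least 2-fold lower, where 6.19% were. Acod1 was 5.83-fold higher (log2 2.54, interval 2.37 to 2.73), Ptgs2 3.45-fold (1.79, 1.52 to 2.07) and Hdc 2.05-fold (1.04, 0.89 to 1.18). The leukotriene genes lay on the other side, with Alox5 at -0.89 (-1.29 to -0.48), Lta4h at -0.46 (-0.78 to -0.13) and Alox5ap at -0.42 (-0.54 to -0.30). Ptgs1 had few UMIs, 25 and 15, and a log2 difference of -1.06 (-2.04 to -0.03). The median over the 7 members was -0.42, against -0.03 over all genes compared. When each cell was thinned to 1000 UMIs, so that every cell weighed the same, the log2 difference was 1.85 for Acod1, 0.77 for Ptgs2 and 0.50 for Hdc.

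**Figure D2:**
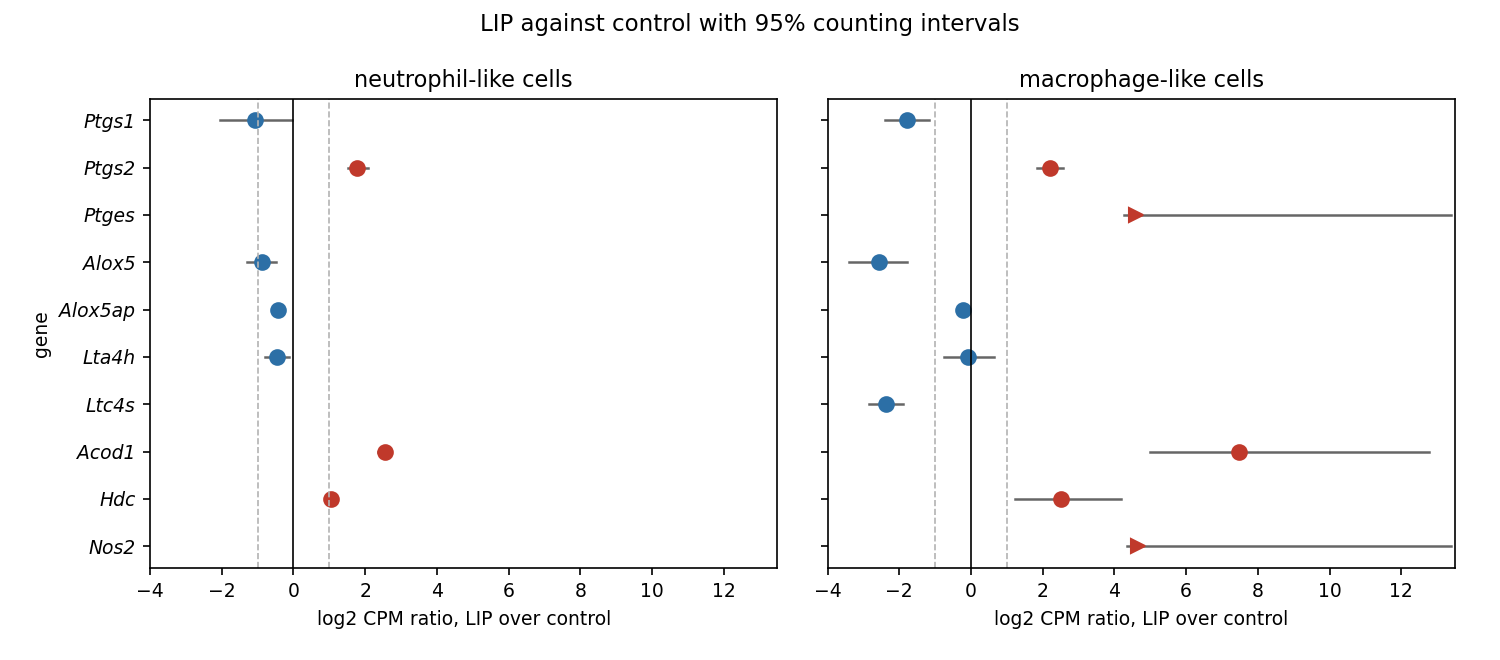
Log2 ratio of CPM in the LIP library over the control library for each member with at least 20 UMIs, in neutrophil-like and macrophage-like cells; bars are 95% counting intervals, dashed lines mark 2-fold, and triangles are lower bounds where control had no UMI. Acod1, Ptgs2 and Hdc lie to the right in both panels, and Ptgs1, Alox5 and, in macrophage-like cells, Ltc4s lie to the left.

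The neutrophil-like class held 2 sub-clusters whose sizes differed between the libraries, and the members differed strongly between them. The first was led by Ccl3, a chemokine gene, and Hcar2 (272 LIP and 29 control cells). The other was led by Ltf, Ngp and Camp, genes of the secondary granules that neutrophils fill while maturing (48 and 23 cells). In the LIP library Ptgs2 had 1447 UMIs in the Ccl3-led sub-cluster and 2 in the Ltf-led one, 1471 against 3.16 CPM. In the control library it had 117 and 4 UMIs, 941 against 11.7 CPM. Acod1 was 16.0-fold higher in the Ccl3-led than in the Ltf-led sub-cluster of the LIP library and 19.8-fold in the control library, and Hdc 3.71-fold and 2.93-fold.

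Lta4h ran the other way. It had 429 CPM in the Ltf-led and 11.2 CPM in the Ccl3-led sub-cluster of the LIP library (272 against 11 UMIs), and 319 and 24.1 CPM in the control library (109 against 3 UMIs). Alox5 was also lower in the Ccl3-led sub-cluster of the LIP library, at 54.9 against 155 CPM, a log2 difference of -1.49 (-2.001 to -1.0), and the control value was -0.80 (-1.75 to 0.05). Alox5ap was nearly level between the sub-clusters, at -0.13 (-0.26 to 0.00) and -0.06 (-0.30 to 0.18). The gene of the enzyme that makes leukotriene B4 and that of the inducible cyclooxygenase had most of their UMIs in different sub-clusters, in both libraries. The median depth also differed, 3645 UMIs in the Ccl3-led and 11304 in the Ltf-led sub-cluster, and its part in these differences was not tested.

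**Figure D3:**
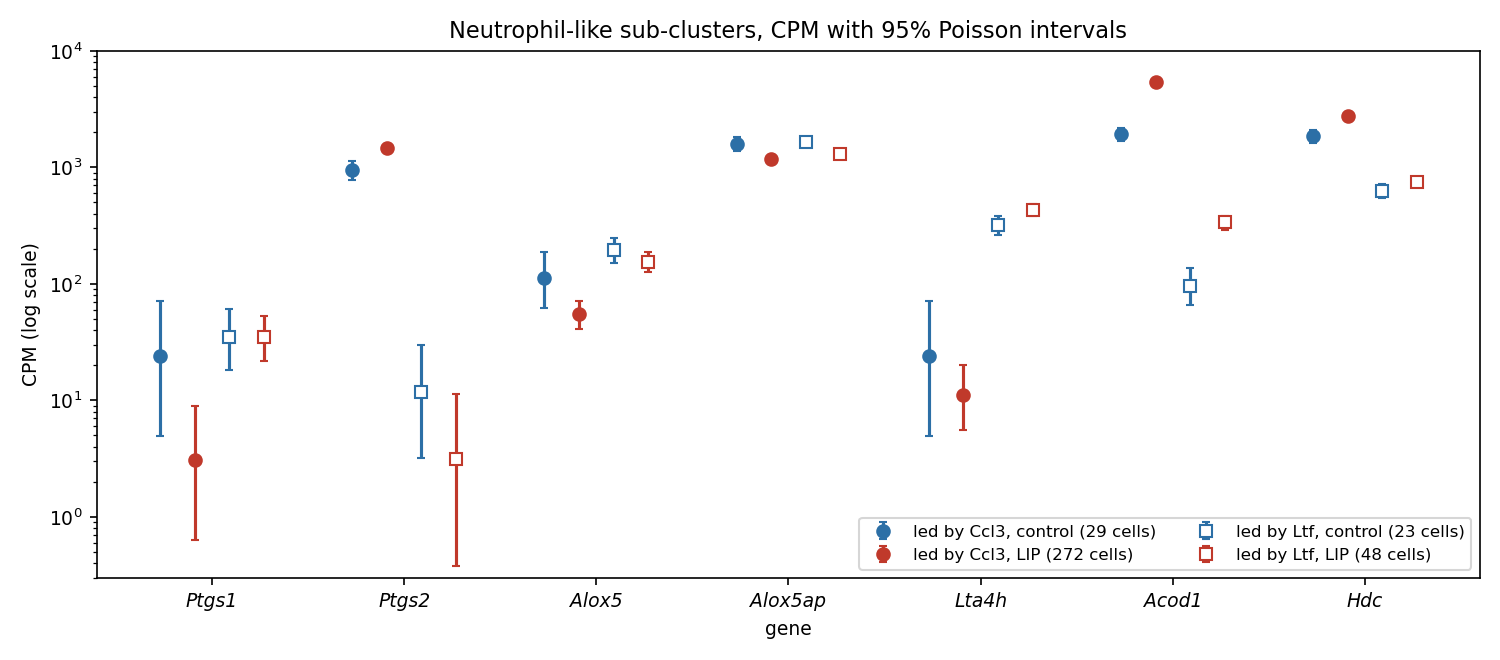
CPM on a log axis of 7 members in the sub-cluster of neutrophil-like cells led by Ccl3 (filled circles) and in that led by Ltf (open squares), for the control (blue) and LIP (red) libraries; bars are 95% Poisson intervals. Ptgs2 falls from 941 to 11.7 CPM in control and from 1471 to 3.16 CPM in LIP between the sub-clusters, whereas Lta4h runs in the opposite direction and Alox5ap is nearly level.

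The LIP difference was smaller for most genes when each sub-cluster was taken alone. In the Ccl3-led sub-cluster Acod1 was 5360 against 1915 CPM (log2 1.49, interval 1.30 to 1.68), Ptgs2 1471 against 941 CPM (0.64, 0.37 to 0.93) and Hdc 2748 against 1851 CPM (0.57, 0.38 to 0.77), and of these only Acod1 was past 2-fold. In the Ltf-led sub-cluster Acod1 was 336 against 96.5 CPM (1.80, 1.27 to 2.38), and Hdc was 741 against 632 CPM (0.23, -0.01 to 0.47). Lta4h changed its side there and was higher in the LIP library, 429 against 319 CPM (0.43, 0.10 to 0.76). Ptgs1, lower over the whole class, was level in the Ltf-led sub-cluster, 34.7 against 35.1 CPM (-0.02, -1.09 to 1.13). That sub-cluster held 22 of its 25 LIP and 12 of its 15 control UMIs. Alox5ap was lower in the LIP library in both sub-clusters, at -0.43 and -0.36, and Alox5 at -1.04 and -0.34, the latter with an interval of -0.81 to 0.13.

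Single neutrophil-like cells often had UMIs of several members. In the LIP library the median cell had UMIs of 4 of the 10 members, as in the control library, and no cell of either library had none. Of the 320 LIP cells 269 had both Acod1 and Hdc, and 172 had both Acod1 and Ptgs2, while 12 had Ptgs2 without Acod1. Taken singly, Acod1 was found in 282, Hdc in 305 and Ptgs2 in 184 of these cells. The pair counts therefore follow largely from how common each gene was. When each cell was thinned to 1000 UMIs, 107 of 311 LIP cells and 5 of 52 control cells had both Ptgs2 and Acod1. At that depth 79.4% of LIP and 46.2% of control cells had an Acod1 UMI, 40.5% and 17.3% a Ptgs2 UMI and 80.1% and 73.1% an Hdc UMI. For Alox5ap the order was the opposite, 64.3% of LIP and 90.4% of control cells.

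In macrophage-like cells all 10 members reached 20 UMIs. In the LIP library 5 were at least 2-fold higher, where 9.66% of the 7543 genes compared in this class were, and 3 were at least 2-fold lower, where 5.82% were. The 5 were Acod1, Nos2, Ptges, Hdc and Ptgs2. The 3 were Alox5, Ltc4s and Ptgs1.

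Acod1 had 438 UMIs in 36 of the 80 LIP cells (CPM interval 272.5 to 329.4) and 1 UMI in the 42 control cells (1.69 CPM), a log2 difference of 7.47 with an interval of 4.99 to 12.78. Nos2 had 187 UMIs in 10 LIP cells (128 CPM) and none in control, at least 25.3-fold higher against the limit that 3 counts set. Ptges had 178 UMIs in 18 LIP cells and none in control, at least 24.1-fold higher. Single cells weighed heavily in both, since 1 cell held 73 of the Nos2 and 47 of the Ptges UMIs, and 3 cells held 71.1% and 52.8%.

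Ptgs2 was 4.59-fold higher, at 558 against 122 CPM (log2 2.20, interval 1.85 to 2.57), with 36 LIP and 7 control cells. A single LIP cell held 199 of the 815 Ptgs2 UMIs, and 3 cells held 44.4% of them in LIP and 55.6% in control. Hdc was 5.68-fold higher, but low, at 47.9 against 8.44 CPM (70 and 5 UMIs). The neutrophil marker list moved the same way in this class, with all 11 markers detected and 724 CPM in the LIP library against 8 markers and 211 CPM in the control library. In 1 of the 80 LIP and none of the 42 control cells did neutrophil markers exceed 1% of UMIs, and that cell held 2 of the 438 Acod1 UMIs and no Hdc UMI. The part of lower levels of neutrophil RNA in the Hdc and Acod1 values was not tested.

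Ltc4s was 5.19-fold lower in the LIP library, at 39.0 against 202.5 CPM (log2 -2.38, interval -2.86 to -1.91), and 51 of the 120 control UMIs came from 1 cell. Alox5 was 5.92-fold lower, 13.7 against 81.0 CPM, and Ptgs1 3.43-fold lower, 28.1 against 96.2 CPM. In the LIP library 1 cell held 20 of the 41 Ptgs1 UMIs and 3 cells held 85.4%, and 1 cell held 9 of the 20 Alox5 UMIs. Alox5ap was close to level, 835 against 972 CPM (-0.22, -0.36 to -0.07). Lta4h was level within its interval, 41.8 against 43.9 CPM (-0.07, -0.76 to 0.65).

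**Figure D4:**
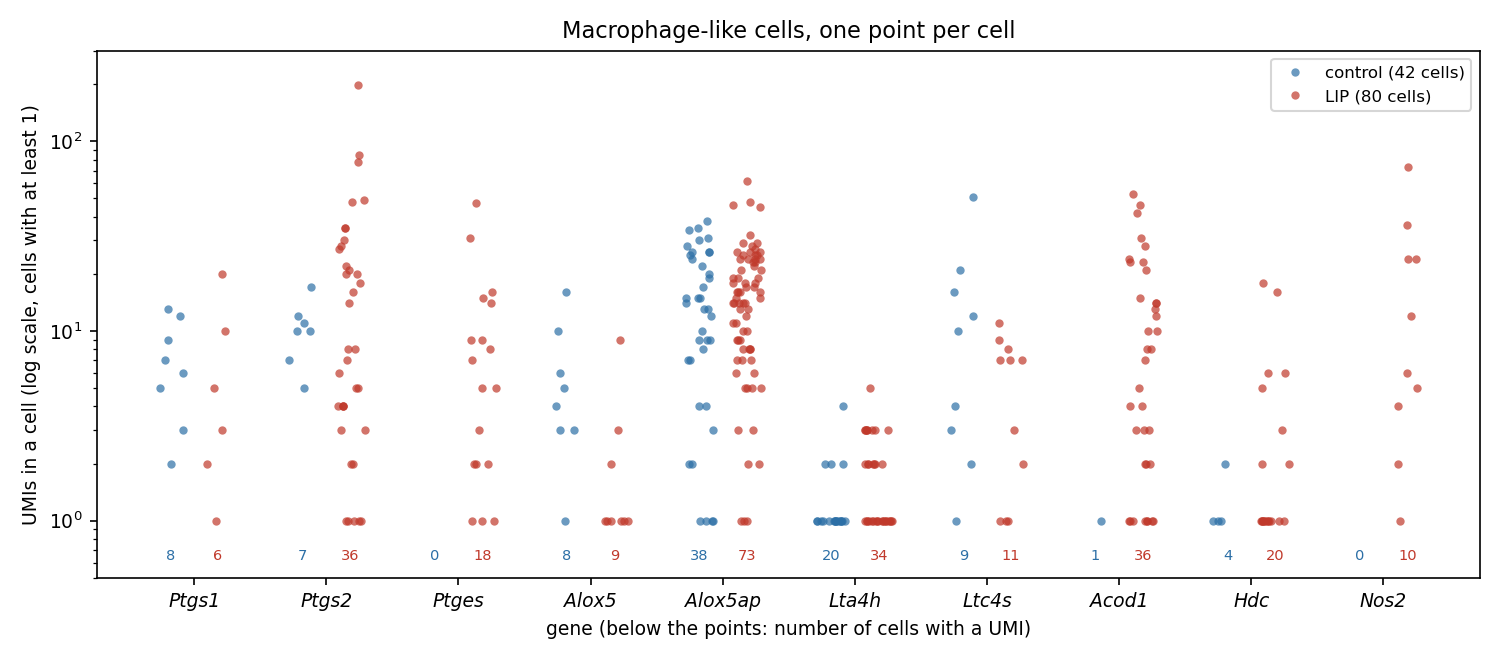
UMIs of each member in single macrophage-like cells (log axis, cells with at least 1 UMI) of the control (blue, 42 cells) and LIP (red, 80 cells) libraries; the number under each column counts the cells plotted. Ptges and Nos2 have no control cell, Acod1 has 1 control and 36 LIP cells, and Ptgs1, Alox5 and Ltc4s lie in 6 to 11 cells of each library.

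Detection in single cells set some of these members apart, though the numbers of cells were small. Of the 10 LIP cells with Nos2, all had Acod1, 7 had Ptgs2 and 6 had Ptges, against 26, 29 and 12 of the other 70. None of the 10 had Ptgs1, Alox5 or Ltc4s. These were found in only 6, 9 and 11 of the other 70, so their absence from 10 cells says little. Of the 36 LIP cells with Acod1, 24 had Ptgs2, 14 Ptges, 1 Ltc4s and none Ptgs1. Of the other 44, 12 had Ptgs2, 4 Ptges, 10 Ltc4s and 6 Ptgs1. Ptgs2 and Hdc were not apart from Ltc4s in this way, since 5 of the 11 LIP cells with Ltc4s had Ptgs2, against 31 of the other 69, and 3 had Hdc, against 17. Arg1, which encodes an arginase that competes with Nos2 for arginine, was found in 16 LIP cells, 14 of them with Acod1 and 5 with Nos2, and in no control cell. Of the other 64 LIP cells 22 had Acod1 and 5 Nos2. The 16 cells with Arg1 were deeper, with a median of 22903 UMIs against 15343, and the part of depth was not tested. In the control library 7 of the 8 cells with Ptgs1 also had Alox5 and 7 had Ltc4s, against 1 and 2 of the other 34. These 8 cells were also deeper, with a median of 20744 UMIs against 13186.5, and the part of depth was not tested there either.

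Cells with dendritic genes were also set apart from the others of the class. Markers of dendritic cells were summed to 201 CPM in LIP and 687 CPM in control macrophage-like cells, with 6 and 5 of 6 detected, and 14 LIP and 16 control cells had UMIs of at least 2 of them. In those 14 LIP cells Ptgs1 was at 85.9 CPM, Alox5 at 35.8 CPM and Ltc4s at 132 CPM, and Ptges and Nos2 were at 0. In the other 66 LIP cells the values were 14.4, 8.47 and 16.9 CPM, with Ptges at 151 and Nos2 at 158 CPM. In the control library Ptgs1 and Alox5 were likewise higher in the cells with dendritic markers, 128 against 70.3 CPM and 113 against 55.0 CPM, but Ltc4s was lower in them, 143 (101 to 197) against 250.5 CPM (199 to 311). In a comparison without the cells with dendritic markers 5 members were at least 2-fold higher and 3 lower, and Ltc4s reached a log2 difference of -3.89. The share of all genes past 2-fold in that set of cells is not given.

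With a stricter limit of 5% mitochondrial UMIs, clustering itself divided these cells, again without use of the members. The first sub-cluster was led by F13a1 and Msr1 and held 48 LIP and 11 control cells of the class. The other was led by Tff2, Muc5b and genes of the class II histocompatibility complex with Cd209a, held 25 LIP and 23 control cells of the class, and had no class name. In the F13a1-led LIP cells Ptgs2 was at 897 CPM, Acod1 at 528, Nos2 at 228 and Ptges at 213 CPM, whereas Ptgs1 had no UMI and Alox5 and Ltc4s had 2 UMIs each. In the class II-led LIP cells Ptgs1 was at 75.1, Alox5 at 31.2 and Ltc4s at 86.1 CPM, Acod1 was at 5.50 CPM, and Ptges and Nos2 had no UMI.

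Between libraries the class II-led cells were lower in LIP for Ltc4s, 86.1 (interval 63.3 to 115) against 277 CPM (226 to 336), and for Alox5, 31.2 (18.2 to 49.9) against 116 CPM (83.7 to 156). These values rest on few cells. Ltc4s was found in 9 of 25 LIP and 7 of 23 control cells, and Alox5 in 6 and 6, so the share of cells was not lower in LIP for Ltc4s. A single control cell held 51 of the 103 Ltc4s UMIs. Ptgs2 stood at 143 and 134.5 CPM in the class II-led cells, with overlapping intervals. In the F13a1-led cells Ptgs2 was at 897 CPM in LIP (833 to 964) and 135 CPM in control (84.4 to 204). At the 5% limit none of the members was counted as lower in the macrophage-like class, since in the F13a1-led cells Ptgs1 had 0 LIP and 11 control UMIs, Alox5 2 and 4, and Ltc4s 2 and 16. With 11 control cells in that sub-cluster, the mix of cells and the level per cell cannot be told apart for these genes over the whole class.

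**Figure D5:**
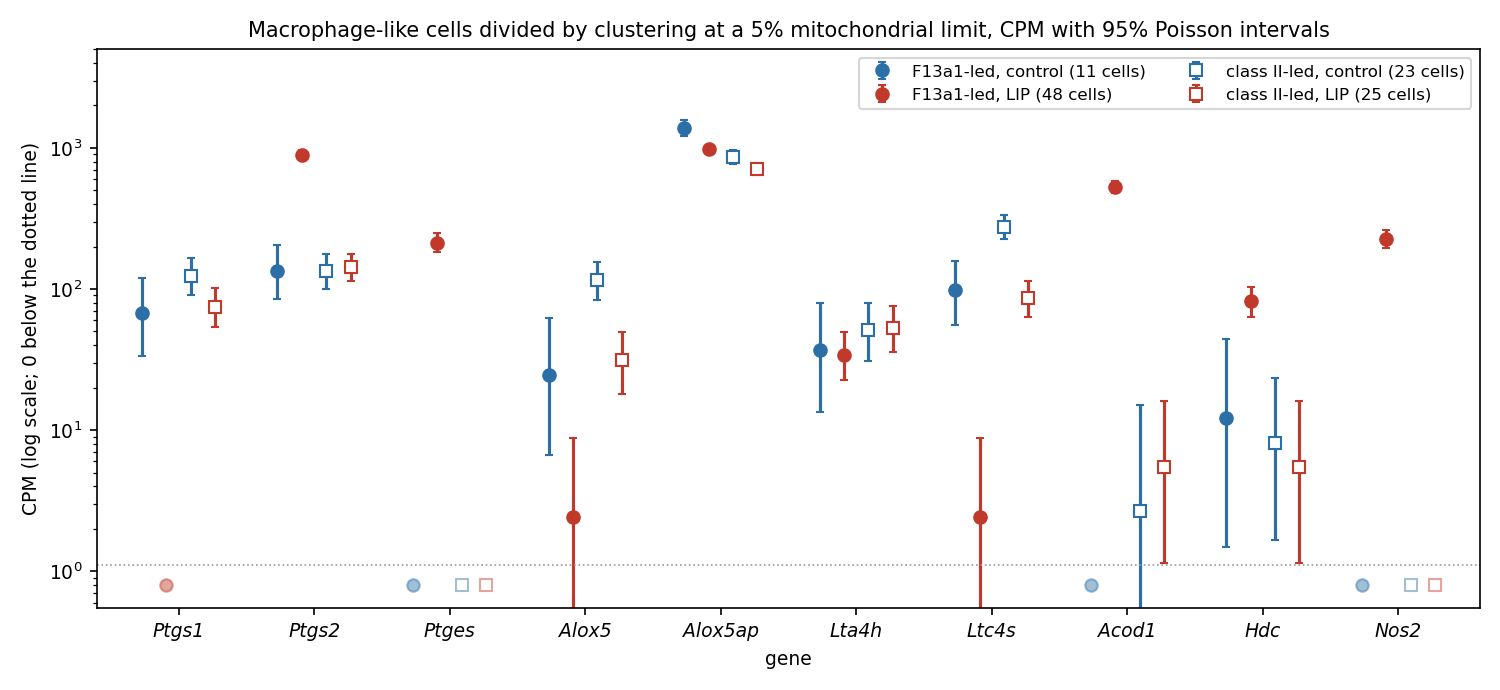
CPM on a log axis of the 10 members in macrophage-like cells divided by clustering at a 5% mitochondrial limit into an F13a1-led (filled circles) and a class II-led (open squares) sub-cluster, for the control (blue) and LIP (red) libraries; bars are 95% Poisson intervals, cut off at the lower edge, and pale symbols under the dotted line are values of 0. Ptges and Nos2 have a value above 0 only in F13a1-led LIP cells, and Ptgs1, Alox5 and Ltc4s lie higher in the class II-led than in the F13a1-led cells of both libraries.

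Outside the myeloid classes few members were at least 2-fold apart, and several of these values rested on 1 cell. In epithelial-like cells 2 of 6 members compared were at least 2-fold higher, where 3.78% of genes were, and none lower, where 2.86% were. They were Acod1 (35 LIP and 21 control UMIs, 13.48 and 3.40 CPM) and Hdc (28 and 13 UMIs, 10.8 and 2.10 CPM), both led by neutrophil-like cells. A single cell held 19 of the 21 control Acod1 UMIs, and 2 cells held 15 and 12 of the 35 LIP ones. The neutrophil marker list stood at 2030 CPM in LIP and 162 CPM in control cells of this class, with 9 and 10 of 11 markers detected. Without the 9 LIP cells and 1 control cell in which these markers exceeded 1% of UMIs, Acod1 had 23 and 2 UMIs (log2 4.84), and Hdc had 14 and 2, too few to be compared. A single LIP cell, in which these markers made up 0.242% of UMIs, held 15 of the 23 Acod1 UMIs.

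Ptges in epithelial-like cells was 20.03 against 11.33 CPM (log2 0.82, interval 0.28 to 1.36) and was spread over 30 of 98 LIP and 42 of 210 control cells. Its sub-clusters differed. Ptges was higher in the LIP cells of that led by BC037156 and Krt6b, with 33.7 against 6.45 CPM (2.38, 1.57 to 3.24). In the sub-cluster led by Pappa and Fst, which also expressed Col17a1 and Trp63, genes of basal keratinocytes, Ptges was 15.75 against 18.03 CPM (-0.20, -1.21 to 0.75). In that led by Cenpf and Cdc20, genes of dividing cells, Ptges had 0 UMIs in 15 LIP cells, which allows up to 5.19 CPM at 3 counts. It had 17 UMIs in 34 control cells (13.6 CPM, 7.94 to 21.8), too few over both libraries to be compared. Lta4h, at 40.45 and 40.47 CPM, and Ptgs1, at 15.8 and 18.3 CPM, lay within their intervals of equality (-0.34 to 0.33 and -0.76 to 0.32).

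In osteogenic-like cells 1 of 3 members compared was at least 2-fold lower, where 9.0% of genes were, and none higher, where 5.13% were. This was Ptgs1, at 24.4 against 60.7 CPM (log2 -1.32, interval -1.95 to -0.71). Ptges was 50.2 against 72.1 CPM (-0.52, -0.998 to -0.049). The class was mostly the sub-cluster led by Mfap4 and Clec3b in the control library (90 of 110 cells) and that led by Ibsp and Bglap, genes of bone-forming cells, in the LIP library (31 of 55 cells). Ptgs1 was lower in both, at -0.91 (-1.81 to -0.10) and -1.63 (-2.71 to -0.55).

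Of the 2 members compared in T-like cells, 1 was at least 2-fold higher, where 10.4% of genes were, and none lower, where 8.19% were. Ptgs2 had 23 LIP and 0 control UMIs, at least 10.6-fold higher, but 14 and 8 of the 23 lay in single cells. In the cell with 8, neutrophil markers exceeded 1% of UMIs, and without it 15 UMIs were left. In the cell with 14, T cell markers made up 0.01755% of UMIs. Of 2 in Schwann-like cells, 1 was higher, where 6.18% of genes were, and none lower, where 7.19% were. Acod1 had 41 and 0 UMIs, and 35 of the 41 lay in 1 cell in which neutrophil markers made up 7.38% of UMIs. In B-like cells Lta4h, the one member compared, was lower, where 11.8% of genes were and 12.6% were higher, with 1 UMI in 20 LIP cells and 19 in 154 control cells and an interval of the log2 difference of -6.41 to 1.62. In vascular endothelial-like, mural-like and secretory-like cells no member of 2, 1 and 2 compared was 2-fold apart, where 8.04%, 5.78% and 2.91% of genes were higher and 5.42%, 4.91% and 3.82% lower.

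The pathway around the members was followed with 58 genes for phospholipases, further synthases, transport, breakdown, receptors and substrates. In macrophage-like cells 22 were compared, 5 were at least 2-fold higher and 3 lower (9.66% and 5.82% of all genes), with a median log2 difference of 0.12 against 0.04 over all genes compared. Arg1 had 574 LIP and no control UMIs, at least 77.6-fold higher, and Arg2, the second arginase, 139 and 3 UMIs (95.2 and 5.06 CPM). Fpr2, a receptor for lipoxin A4 and formyl peptides, was at 162 against 16.9 CPM. Ass1, which renews arginine, was at 375 against 172 CPM, and Slc7a2, which carries arginine into cells, had 34 and 0 UMIs. The 3 lower genes were Hpgd, which breaks down prostaglandins (44.5 against 179 CPM), Hpgds, which makes prostaglandin D2 (93.1 against 236 CPM), and Dpep2, which trims leukotriene D4 (44.5 against 110 CPM). Hpgds, like Ptgs1, was higher in cells with dendritic markers, 308 against 42.3 CPM in the LIP library.

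In neutrophil-like cells 16 pathway genes were compared, 3 were at least 2-fold higher and none lower (12.2% and 6.19% of all genes), with a median of -0.01 against -0.03 over all genes. Arg2 was at 652 against 245 CPM (log2 1.41, interval 1.13 to 1.71). Gch1, which supplies the cofactor of nitric oxide synthases, was at 141.6 against 30.04 CPM (2.24, 1.46 to 3.13), although Nos2 itself had 12 and 2 UMIs. Pla2g4a, the cytosolic phospholipase that frees arachidonic acid, had 26 and 3 UMIs (1.32, -0.39 to 3.69). Cyp4f18, which degrades leukotriene B4, was just under 2-fold higher, 542 against 275 CPM, and Mgst2, a leukotriene C4 synthase related to Ltc4s, was just under 2-fold lower, 81.0 against 161 CPM. The leukotriene B4 receptor gene Ltb4r1 was at 182 against 240 CPM, and Fpr2 was level at 466 against 472 CPM. These values cover the whole class, in which the Ccl3-led sub-cluster was 272 of 320 LIP and 29 of 52 control cells. The part of this mix in the pathway genes was not tested.

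In epithelial-like cells 7 of 27 pathway genes were at least 2-fold higher and 2 lower, where 3.78% and 2.86% of all genes were. Arg1 was at 38.1 against 0.162 CPM (99 and 1 UMIs), Ggt1, which converts leukotriene C4 to D4, at 53.9 against 2.91 CPM, and the 12-lipoxygenase gene Alox12 at 42.0 against 5.67 CPM. Aoc1, which degrades histamine, was at 9.25 against 1.13 CPM. Pla2g4a was lower, 8.86 against 18.3 CPM, as was Alox12e with 1 LIP and 23 control UMIs. In osteogenic-like cells 1 of 17 was higher, Hpgd at 184 against 43.7 CPM, the opposite side from macrophage-like cells, and 4 were lower (5.13% and 9.0% of all genes), among them the prostaglandin F receptor gene Ptgfr at 111 against 283 CPM. The prostaglandin transporter gene Slco2a1 was lower in osteogenic-like cells, 8.86 against 28.3 CPM, and higher in vascular endothelial-like cells, 829 against 342 CPM. The osteogenic-like values cover the whole class, mostly Mfap4-led cells in control (90 of 110) and Ibsp-led cells in LIP (31 of 55). The part of this mix in the pathway genes was not tested.

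Ptgis, the prostacyclin synthase gene, was lower in mural-like cells, 12.5 against 169 CPM, and in vascular endothelial-like cells, 19.6 against 40.6 CPM with an interval of the log2 difference of -2.16 to 0.08. In osteogenic-like cells, which held most of its UMIs, it was higher over the whole class, 429 against 279 CPM (log2 0.62, interval 0.43 to 0.82). Of 13 pathway genes compared in mural-like cells, 1 was higher and 2 lower (5.78% and 4.91% of all genes), and of 13 in vascular endothelial-like cells, 1 was higher and 1 lower (8.04% and 5.42%). Among T-like cells 1 of 6 was higher (10.4% of all genes), Ltb4r1 at 113 against 37.0 CPM, and among B-like cells 1 of 6 was lower (11.8%), Ass1 with 1 and 25 UMIs, so both shares rest on 1 gene. None of 5 in Schwann-like cells and none of 11 in secretory-like cells was 2-fold apart.

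The genes whose levels followed each member most closely were found by Pearson correlation of log2(CPM + 10) over 22 profiles, a class in a library each, among 11789 genes. These profiles share libraries and depth, and the values are descriptive. Acod1 was closest to Arg2 (r = 0.964), Hdc to Csf3r (0.979), the receptor gene of granulocyte colony-stimulating factor, and Ptgs2 to Lrrc25 and Cd80 (0.978 and 0.967). Alox5ap was closest to Nfam1 (0.988) and Alox5 to Chil3 (0.979). Ltc4s was closest to Cd209a and Mgl2 (0.962 and 0.947), lectin genes of dendritic cells and macrophages, and to Dpep2 (0.947), which acts after it in the cysteinyl leukotriene pathway. Ptges (Bdh2, 0.810), Nos2 (Dcdc2a, 0.857), Ptgs1 (Rab11fip5, 0.881) and Lta4h (Zmpste24, 0.919) had less close neighbours.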

How the data were processed

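The authors deposited 10x Genomics matrices of raw UMI counts per gene and barcode, made with Cell Ranger (3.1.0 in the matrix header) on the mm10 genome, 1 for each library. Libraries were made with the 3′ kit (version 3). Members and gene lists were chosen with earlier results of these data known. The named genes were the 10 members, 58 pathway genes, listed markers, leading genes of clusters and the 3 genes with the highest correlation to each member.

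Barcodes with 200 to 7500 genes, at most 60000 UMIs and at most 10% mitochondrial UMIs were kept (936 of 1212 LIP and 883 of 1169 control, 10560109 and 13407122 UMIs). Doublets called by Scrublet in scanpy (version 1.11.5), 2 LIP and 3 control cells, were kept in the values reported and left out in an alternative. Cells were integrated and clustered in Seurat (version 5.3.0, R 4.3.3) on 2000 variable features without members and pathway genes, with 30 dimensions and resolution 0.1, and clusters of at least 40 cells were divided at 0.2. A sub-cluster was named from 20 marker lists where at least 3 markers of 1 list marked it, in at least 25% of cells and over 2-fold higher than elsewhere. UMIs were summed per class and library and divided by the total (CPM). CPM have exact Poisson and ratios exact conditional 95% intervals (scipy 1.17.1), and a group at 0 was set to 3 counts for a bound. The code was tested on simulated counts. There was no test between conditions, since each was 1 library. In all, 17 settings were compared, of which the 4 that took 1 neutrophil sub-cluster alone, left out cells with dendritic markers or left out cells with neutrophil markers were chosen after seeing the data, as was the division of macrophage-like cells at the 5% limit.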

Additional observations from a re-analysis of the deposited data

Results flagged for a closer look

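Some signal of the members lay in barcodes that the filters left out of every comparison, 276 of the LIP and 286 of the control library. In these Ptgs2 had 77 LIP and 8 control UMIs (20.9 and 2.61 CPM), a log2 difference of 3.0 with a counting interval of 1.96 to 4.27. Ptges had 79 and 31 UMIs (21.5 and 10.1 CPM), a difference of 1.09 (0.47 to 1.74). Nos2 had 17 and 0 UMIs there, and Acod1, the most frequent member among kept cells of the LIP library, had 34 and 44 (9.25 and 14.4 CPM). These barcodes have no class, so the cells behind them cannot be told.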

How the results depend on the processing

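With 1 library per condition, each of 5 pooled mice, no value has a replicate error, and depth per cell limits the rarer members. The counts of members at least 2-fold apart were 3 higher and 1 lower in neutrophil-like cells (12.2% and 6.19% of all genes). They were 5 and 3 in macrophage-like cells (9.66% and 5.82% of all genes) and 12 and 6 over 10 classes. No share of all genes is given over the 10 classes together or under the other settings. In neutrophil-like cells, thinning to 1000 or 2000 UMIs left 1 higher, with 2 lower at 2000. Averaging the CPM of single cells gave 1 higher and 3 lower. The Ccl3-led sub-cluster alone gave 1 higher, and the Ltf-led one 1 higher and 0 lower. No member was lower at resolution 0.3 (0) or with a minimum of 50 UMIs (0), and 2 were with no minimum. In macrophage-like cells, thinning to 1000 UMIs gave 2 higher and 0 lower, thinning to 2000 UMIs 3 and 0, and a 5% mitochondrial limit 0 lower. Over 10 classes, thinning to 1000 UMIs gave 3 higher and 1 lower, thinning to 2000 UMIs 5 and 2, the 5% limit 2 lower, and no minimum 25 and 16. Thinning leaves fewer members with 20 UMIs by construction. In neutrophil-like cells, however, Ptgs2 and Hdc were still compared at 1000 UMIs and were then less than 2-fold apart, as given above. At the 5% limit Ptgs1, Alox5 and Ltc4s in the F13a1-led macrophage-like cells also fell under this minimum. The cause of the other shifts was not tested. Without the cell with the most UMIs the log2 value changed sign for Acod1 in Schwann-like cells (-0.35) and Lta4h in B-like cells (0.79). Both are bounds, since control Schwann-like and LIP B-like cells then had no UMI and were set to 3 counts. Neither value shows that the direction turned. Counted once for each ratio and setting, 466 log2 ratios kept their direction within the counting interval, and 64 moved beyond it. This count is not a measure of stability. A change of the minimum of UMIs cannot move a ratio, and settings that alter a single class leave the others as they were. Thinning to 1000 UMIs moved 7 ratios and left 1 the same, and thinning to 2000 UMIs moved 10 and left 3. At the 5% limit the log2 difference of Ptgs2 in macrophage-like cells was 2.73, and that of Acod1, then without control UMIs, was at least 4.84. No paired analysis was possible because each condition had 1 library.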
